A study of Mus musculus with 6 samples.

Results

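The genes described here handle cholesterol inside macrophages and send it out of the cell. They are Apoe, Abca1, Abcg1, Nr1h3, Mylip, Ch25h, Soat1, Npc1, Npc2 and Lipa, taken from the count table by their exact symbols, 10 of its 50600 genes. All 10 had enough reads to be tested. RNA had been sequenced from resident macrophages of pancreatic islets and of epididymal white adipose tissue, the fat depot beside the testis, of C57BL/6J male mice. The mice carried no genetic change or treatment according to the labels, were 12 weeks old and ate chow. Cells that excluded DAPI and carried CD45, F4/80 and CD64 were sorted, and 3 libraries were made per tissue, numbered 2, 4 and 6 in both. The numbers were taken to mark the animal, and the sources used here do not say whether islets of several animals were pooled.

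Macrophages take up cholesterol with lipoproteins and dead cells, free it in the lysosome, and either store it as esters or pass it to particles outside the cell. Excess cholesterol is turned into oxysterols, which bind the liver X receptors (LXR), nuclear receptors that pair with RXR on DNA. In macrophages these receptors switch on the cholesterol exporters Abca1 and Abcg1 and the lipid carrier Apoe. A second system, the SREBP factors, raises cholesterol uptake and synthesis when sterols are scarce.

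Of the 10 genes, 8 were higher in islet than in fat macrophages, none was lower, and Abca1 and Nr1h3 did not pass the test (edgeR's quasi-likelihood test with Benjamini-Hochberg adjustment over all genes tested, threshold 0.05). Among all 12152 genes tested, 8.97% were higher in islet macrophages and 10.5% were lower. The 10 genes were chosen with earlier results of these data known, so the counts describe the list and do not test it. The oxysterol enzyme Ch25h and the exporter Abcg1 differed most, by 14.3-fold and 11.1-fold, followed by Mylip at 4.54-fold, Apoe at 3.88-fold and Soat1 at 3.01-fold. The lysosomal genes Npc2, Npc1 and Lipa were 2.32-fold, 2.31-fold and 2.28-fold higher. At an unadjusted p under 0.05 edgeR gave 9 higher and none lower, as did the DESeq2 adjusted p, and limma voom gave 8 and none. The same 8 genes had every islet library above every fat library, which 18.2% of all genes did, and the reverse order, which 22.3% of all genes had, was found in none of the 10. The median log2 difference, islet minus fat, was 1.77 over the 10 genes and 0.01 over all genes tested. Without fat library 2, 4 or 6 the count of higher genes was 4, 4 and 5, and without islet library 2 it was 6. Abcg1, Ch25h, Mylip and Soat1 passed under each of the 17 alternative settings.

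**Figure D1:**
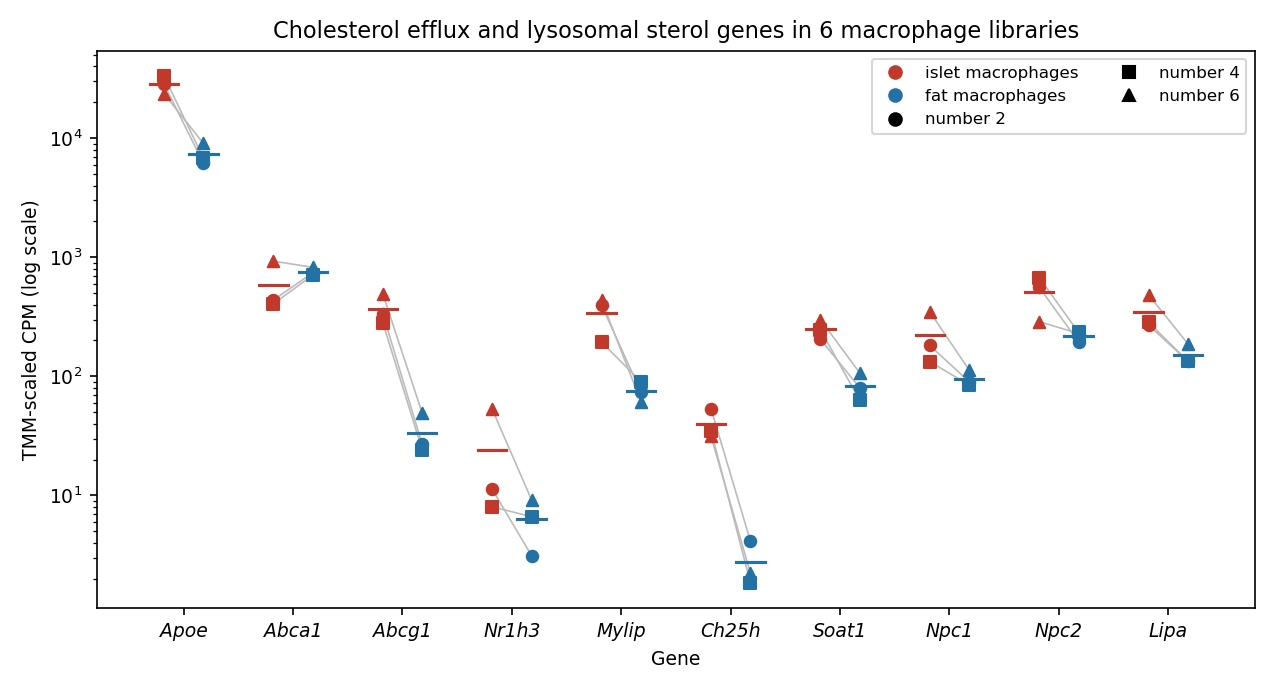
Levels of the 10 genes in each library as CPM, read counts divided by the TMM-scaled library size (log axis). Red marks islet and blue fat macrophages, the marker shape gives the animal number, grey lines join equal numbers and short bars are tissue means (n = 3). Abca1 and Nr1h3 are the genes in which the tissues overlap.

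Total counts per library ranged from 4089980 to 9235591. The 10 macrophage marker genes had reads in every library, with summed levels of 5711 to 8661 CPM in the islet and 7924 to 9923 CPM in fat libraries. The islet libraries differed among themselves: 11 heat shock and immediate early genes took 8.09%, 9.81% and 0.646% of counts in islet libraries 2, 4 and 6 and 1.17% to 1.35% in fat libraries. This sum joins genes of opposite direction. All heat shock genes in it had every islet library above every fat library. Hspa1b stood at 1406 CPM in islet library 6 and at 20.2 to 49.8 CPM in fat libraries. Fos and Egr1 had the reverse order, with Fos at 151 to 341 CPM in islet and 3083 to 3587 CPM in fat libraries. Jun and Atf3 overlapped between the tissues. The 6 beta cell markers took 0.653%, 0.427% and 0.288% of counts in islet libraries 2, 4 and 6 and at most 0.000497% in fat libraries, where all 6 were at 0 in library 6. The 6 adipocyte markers were at 0 in every islet library and summed to 32.8 to 117 CPM in fat libraries. The 6 fibroblast markers summed to 86.5 to 376 CPM in fat and 0.605 to 2.58 CPM in the islet libraries. Fat libraries also had higher sums of the 6 monocyte markers (227 to 373 against 41.6 to 139 CPM) and the 6 endothelial markers (29.9 to 161 against 7.45 to 26.4 CPM). The same held for the 6 Schwann cell and pericyte markers (10.7 to 96.5 against 3.73 to 8.22 CPM). The 6 dendritic cell markers summed to 78.9 to 96.5 CPM in fat and 12.3 to 20.4 CPM in islet libraries. That excess lay in Cd209a (means of 59.4 CPM in fat and 1.15 CPM in islet libraries) and Zbtb46 (22.5 and 1.44 CPM). Flt3, Xcr1, Clec9a and Ccr7 had higher means in islet libraries, at 3.45, 1.37, 5.90 and 3.68 against 1.99, 0.995, 2.07 and 0.708 CPM. The 6 markers of other islet endocrine cells summed to 740 to 1495 CPM in islet libraries and to 0.235 to 1.19 CPM in fat libraries. With the heat shock and immediate early genes left out, 8 of the 10 genes were again higher. That fit leaves the counts of the 10 genes as they are, so it cannot show whether the heat shock difference between libraries affects them. The part of the other cell types' RNA in the results was not tested, and in bulk RNA fewer cells of a type and less RNA per cell cannot be told apart.

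Apoe encodes apolipoprotein E, the protein that macrophages secrete to carry exported lipid (GRCm38 chromosome 7, 19696109 to 19699188, minus strand, 5 merged exons). It stood at 28536, 33209 and 23594 CPM in the islet libraries 2, 4 and 6 and at 6161, 6787 and 9037 CPM in fat libraries 2, 4 and 6. The lowest islet library was above the highest fat library. The means were 28446 ± 4808 and 7328 ± 1512 CPM (SD, n = 3 each), a log2 difference of 1.96 ± 0.37 (SE, 95% interval 1.12 to 2.80, edgeR adjusted p = 0.00706). The edgeR adjusted p was 0.0622 without fat library 2 and 0.0583 without fat library 4, with log2 differences of 1.83 and 1.84.

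Apoe alone took 2.37%, 2.83% and 2.53% of all counts in islet libraries 2, 4 and 6. In fat libraries 2, 4 and 6 its share was 0.706%, 0.686% and 1.004%. The exact (Clopper-Pearson) 95% intervals, which cover counting error only, ran from 2.36% to 2.38% in islet library 2 and from 0.700% to 0.711% in fat library 2. Per exon length, Apoe ranked between 2 and 4 among protein-coding genes in all 6 libraries, so that it was among the most abundant messages in both kinds of macrophage.

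Abca1 and Abcg1 encode the membrane pumps that hand cholesterol to acceptors, Abca1 to lipid-poor apolipoproteins and Abcg1 mainly to formed high-density lipoprotein. Abcg1 (GRCm38 chromosome 17, 31057675 to 31117988, plus strand) stood at 337, 283 and 493 CPM in the islet libraries 2, 4 and 6. In fat libraries 2, 4 and 6 it stood at 26.9, 24.1 and 49.2 CPM. The gap between the tissues was several times the spread within either. Islet exceeded fat by a log2 difference of 3.47 ± 0.38 (SE, 95% interval 2.61 to 4.34, edgeR adjusted p = 5.33e-04), and in the animals numbered 2, 4 and 6 it was 3.65, 3.55 and 3.33.

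Abca1 (GRCm38 chromosome 4, 53030787 to 53159895, minus strand) showed another pattern. Its values were 437, 407 and 927 CPM in the islet libraries 2, 4 and 6 and 742, 707 and 823 CPM in fat libraries 2, 4 and 6. Islet libraries 2 and 4, those with the high heat shock share, lay below every fat library, and islet library 6 lay above every fat library. The log2 difference was -0.36 ± 0.36 (SE, 95% interval -1.18 to 0.46, edgeR adjusted p = 0.541). Without islet library 6 it was -0.85 with an edgeR adjusted p of 0.0136. Without islet libraries 2 and 4, an alternative chosen after seeing the data that leaves islet library 6 alone, it was 0.21.

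The intervals of the 2 exporters did not touch, the lower end for Abcg1 being 2.61 and the upper end for Abca1 0.46. Scaled by exon length, which allows genes to be compared within a library, Abcg1 stood at 1.09, 0.987 and 0.755 times the Abca1 level in islet libraries 2, 4 and 6. In fat libraries 2, 4 and 6 it stood at 0.0514, 0.0485 and 0.0848 times the Abca1 level. A ratio of 2 genes in the same library does not depend on how the library is scaled, and the tissues did not overlap in it. This pair was chosen after its values were seen, so the ratio is a description.

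Of the 10 genes, 8 (all but Abcg1 and Npc1) were searched in RefSeq promoter windows (from 250 bases before to 50 after the start, GRCm38.p6), and among these 8 Abca1 alone held the letters of an LXR element. That motif, DR4, was spelled as GGTNA, any 5 letters and GGTNA, and searched on both strands. It occurred in 221 of 27025 genes with a window (0.818%), and in 3 of the 80 sterol genes with a window (3.75%), namely Abca1, Srebf1 and Fasn. The SREBP element SRE, spelled as TCAC, any letter and CCAC, was searched in the same way and occurred in 388 of the 27025 genes (1.44%) and in 2 of the 80 sterol genes (2.5%), neither of them among the 10. Srebf1 encodes the SREBP factor that drives fatty acid synthesis, and Fasn encodes fatty acid synthase. The stretches are shown 5′ to 3′ on the strand of the gene because they are the windows that hold the receptor's motif, and capitals mark the match, which reads as DR4 on the other strand.
Abca1, chr4:53159928-53159982 (-): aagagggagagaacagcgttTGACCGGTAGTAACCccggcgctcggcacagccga
Srebf1, chr11:60210619-60210673 (-): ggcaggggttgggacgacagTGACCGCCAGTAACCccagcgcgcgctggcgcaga
Fasn, chr11:120824738-120824792 (-): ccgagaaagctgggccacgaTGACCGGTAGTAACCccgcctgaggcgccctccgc
The matches begin 67, 182 and 225 bases before the start of Abca1, Srebf1 and Fasn, and the capitals of Abca1 and Fasn are the same 15 letters. None of these 3 genes passed the test between the tissues. Srebf1 had a log2 difference of 0.63 ± 0.40 (SE, edgeR adjusted p = 0.322) and Fasn of -0.10 ± 0.43 (SE, edgeR adjusted p = 0.904). Fasn stood at 43.9, 47.6 and 58.7 CPM in islet and 66.7, 73.6 and 20.5 CPM in fat libraries 2, 4 and 6. The summed adipocyte markers of these fat libraries, 88.1, 117 and 32.8 CPM, had the same order, and their part in the Fasn values was not tested. A match is a description and not a binding site, and no match says only that these letters are not in the window.

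Nr1h3 encodes LXR alpha, the receptor form that macrophages can induce (GRCm38 chromosome 2, 91184061 to 91202834, minus strand). It was the most variable of the 10 genes, at 11.3, 8.03 and 52.9 CPM in the islet libraries 2, 4 and 6 and 3.12, 6.63 and 9.18 CPM in fat libraries 2, 4 and 6. Islet library 4 fell within the fat range, while islet library 6 was 5.48 times the mean of the other islet libraries. The log2 difference was 1.95 ± 0.74 (SE, 95% interval 0.27 to 3.63), as large as that of Apoe but with an edgeR adjusted p of 0.102. It was 2.35 without islet library 4 (edgeR adjusted p = 0.0401) and 0.62 without islet library 6 (edgeR adjusted p = 0.436). DESeq2 gave an adjusted p of 0.0396 on all 6 libraries. Without islet libraries 2 and 4, a fit added after seeing the data that leaves islet library 6 alone, the difference was 2.9996. Nr1h2, which encodes the ubiquitous form LXR beta, stood at 67.3 ± 14.2 CPM in the islet and 51.7 ± 13.9 CPM in the fat macrophages (SD, 3 libraries each), with an edgeR adjusted p of 0.412.

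Mylip and Ch25h stand on either side of these receptors. Ch25h makes 25-hydroxycholesterol, an oxysterol that macrophages also release during immune responses (GRCm38 chromosome 19, 34473778 to 34475164, minus strand, 1 exon). It had 266, 122 and 234 reads in islet libraries 2, 4 and 6 and 44, 14 and 19 reads in fat libraries 2, 4 and 6. The CPM values were 53.6, 35.0 and 31.5 in islet and 4.16, 1.86 and 2.24 in fat libraries. Every islet library was well above the fat range, and the islet values of libraries 4 and 6 were close to each other. The log2 difference was 3.84 ± 0.43 (SE, 95% interval 2.86 to 4.81, edgeR adjusted p = 5.84e-04), or 14.3-fold with an interval of 7.28 to 28.1. The opposite-strand gene Gm26902 overlaps 11.5% of its exon length, and since the sources used here do not give the strand setting of the counting, reads of that stretch cannot be assigned to either.

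Mylip encodes the ubiquitin ligase IDOL, an LXR-induced protein that lowers lipoprotein uptake (GRCm38 chromosome 13, 45389742 to 45412022, plus strand). It stood at 395, 194 and 434 CPM in the islet libraries 2, 4 and 6 and 73.8, 90.2 and 61.3 CPM in fat libraries 2, 4 and 6. The lowest islet library, number 4, was still above the highest fat library, which was also number 4. This was a log2 difference of 2.18 ± 0.35 (SE, edgeR adjusted p = 0.00336). Within animals numbered 2, 4 and 6 it was 2.42, 1.10 and 2.83.

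**Figure D2:**
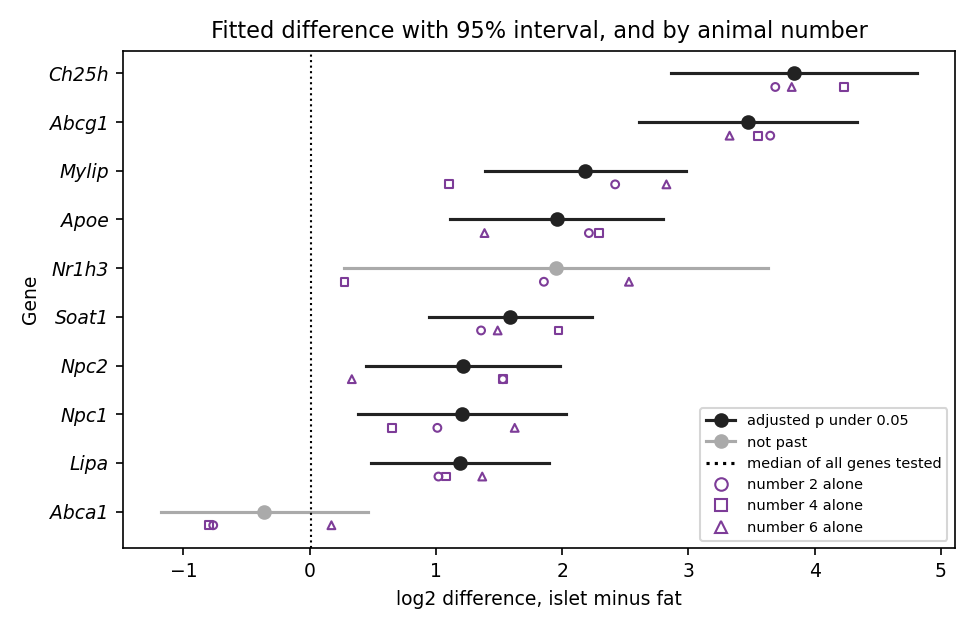
Fitted log2 differences between islet and fat macrophages for the 10 genes (dots) with 95% intervals (lines), in black where the adjusted p is under 0.05. Open purple symbols give the difference between libraries with the same number, and the dotted line is the median of all genes tested, 0.01. Abca1 is the only gene left of the line, and its 3 single-animal values fall on both sides of 0.

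In the lysosome, acid lipase (Lipa) splits cholesterol esters, and the proteins Npc2 and Npc1 pass the freed cholesterol on to the membrane. Lipa (GRCm38 chromosome 19, 34492318 to 34527474, minus strand) stood at 271, 284 and 483 CPM in the islet and 133, 134 and 187 CPM in fat libraries 2, 4 and 6. The tissues did not overlap, and number 6 was the highest library in each. This gave a log2 difference of 1.19 ± 0.31 (SE, edgeR adjusted p = 0.0278). It missed the threshold without fat library 2, 4 or 6, with edgeR adjusted p of 0.146, 0.152 and 0.0636.

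The Niemann-Pick genes, named after the storage disease that their loss causes, had opposite orders among the islet libraries. Npc1 was highest in islet library 6, at 182, 133 and 348 CPM in the islet libraries 2, 4 and 6 and 90.1, 84.5 and 113 CPM in fat libraries 2, 4 and 6. Npc2 (GRCm38 chromosome 12, 84754562 to 84773152, minus strand) was lowest in islet library 6, at 562, 675 and 288 CPM in the islet and 195, 234 and 229 CPM in fat libraries. Neither overlapped between the tissues. The log2 differences were nearly equal, 1.21 ± 0.36 for Npc1 and 1.21 ± 0.34 for Npc2 (SE, edgeR adjusted p = 0.0489 and 0.0360).

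These were the weakest calls of the 8. Npc1 passed in 10 of 17 alternative settings, with edgeR adjusted p of 0.0765 without islet library 2 and of 0.190, 0.204 and 0.111 without fat libraries 2, 4 and 6. Npc2 also passed in 10, with edgeR adjusted p of 0.0996 and 0.0698 without islet libraries 2 and 4 and of 0.169, 0.139 and 0.121 without fat libraries 2, 4 and 6. With the animal number as a block, Npc2 had an edgeR adjusted p of 0.0535. Without islet libraries 2 and 4 together its log2 difference was 0.32. The opposite-strand gene Rmc1 overlaps 4.51% of the exon length of Npc1.

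Soat1 encodes the enzyme that esterifies cholesterol for storage in droplets (GRCm38 chromosome 1, 156424525 to 156474331, minus strand). It stood at 205, 247 and 300 CPM in the islet libraries 2, 4 and 6 and 80.1, 62.9 and 107 CPM in fat libraries 2, 4 and 6. The islet values spread little, and every one of them was above the fat range. Soat1 had a log2 difference of 1.59 ± 0.28 (SE, 95% interval 0.95 to 2.23, edgeR adjusted p = 0.00533), and it was 1.36, 1.97 and 1.49 in animals numbered 2, 4 and 6.

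The order of the genes by level, as counts per exon length scaled to the same total over protein-coding genes, began with Apoe in both tissues. Apoe stood at 48812 ± 3306 in islet and 17946 ± 3193 in fat macrophages (SD, n = 3), far above the next gene. In fat macrophages Abca1 came second at 385 ± 37.5, followed by Npc2 at 211 ± 7.22, then Mylip at 122 ± 22.3 and Lipa at 117 ± 21.7, which overlapped each other. Soat1 at 44.8 ± 11.9 and Npc1 at 44.5 ± 6.90 overlapped as well. Abcg1 at 23.96 ± 9.35 overlapped Nr1h3 at 12.96 ± 5.82, and that overlapped Ch25h, the last at 10.6 ± 5.56.

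In islet macrophages the other 9 genes formed no clear steps, since each overlapped the next. They ran from Mylip at 407 ± 208 and Npc2 at 333 ± 84.8 to Npc1 at 77.7 ± 54.7 and Nr1h3 at 40.5 ± 48.0. Abcg1 stood at 197 ± 96.9, next to Abca1 at 226 ± 157 and Lipa at 199 ± 109, whereas in fat macrophages these 3 genes were apart. These values depend on what else a library holds, the heat shock messages included, so they serve to compare genes and not tissues.

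**Figure D3:**
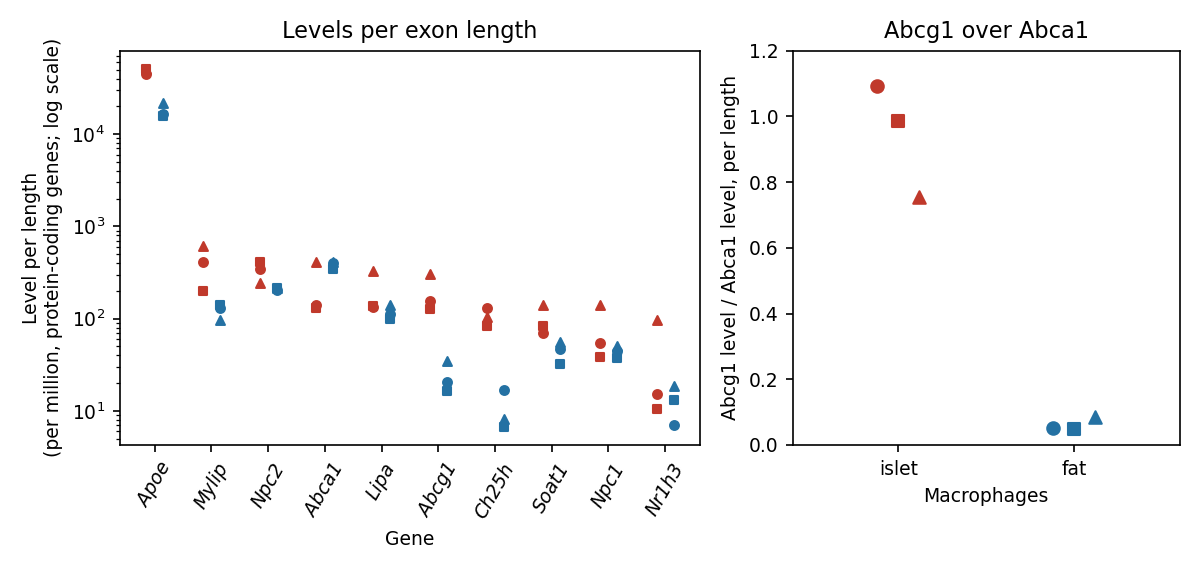
Left, levels per exon length (scaled to the same total over protein-coding genes, log axis) of the 10 genes in each islet (red) and fat (blue) library, ordered by the islet mean, with marker shapes for the animal numbers as in the plot of CPM. Right, the level of Abcg1 divided by that of Abca1 in the same library, 0.755 to 1.09 in islet and 0.0485 to 0.0848 in fat macrophages.

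Islet library 6 lay at an end of the islet libraries for most of these genes, as it did for most of all genes tested. In TMM-scaled CPM it was the highest islet library for 7 of the 10 genes (Abca1, Abcg1, Nr1h3, Mylip, Soat1, Npc1 and Lipa) and the lowest for Apoe, Ch25h and Npc2. Over all genes tested it was the highest for 37.6% and the lowest for 34.6%. Relative to the mean of libraries 2 and 4 it ranged from 0.466 for Npc2 to 5.48 for Nr1h3, with Npc1 at 2.21 and Abca1 at 2.20. With plain CPM the same 7 genes were highest in library 6 and Npc2 alone was lowest, against 50.8% highest and 24.1% lowest over all genes tested. Libraries 2 and 4 are those with the high heat shock and early gene share, and the part of that difference in these values was not tested.

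The other genes of the pathway did not share one direction. Of 14 tested partners of LXR and sterol sensors, 1 was higher in islet macrophages and 3 were lower, with a median log2 difference of 0.01. Pparg, a fatty acid receptor that can induce Nr1h3, was higher, at 33.9 ± 13.3 against 13.4 ± 3.33 CPM (SD over 3 libraries each, edgeR adjusted p = 0.0378). Rxra, which encodes the main RXR partner, was lower, at 55.0 ± 6.75 against 100.5 ± 14.03 CPM (edgeR adjusted p = 0.0287, and 0.0622 with the animal number as a block). The coactivator gene Ncoa1 was lower, at 50.9 ± 16.4 against 131.5 ± 22.2 CPM (edgeR adjusted p = 0.0142), as was Insig1, which holds SREBP back in the endoplasmic reticulum and was named after its values were seen (edgeR adjusted p = 0.0479). Each of these 4 calls was lost without some single libraries, the highest edgeR adjusted p being 0.173 for Pparg without fat library 4, 0.128 for Rxra without fat library 6, 0.0734 for Ncoa1 and 0.134 for Insig1 without fat library 2. Without fat libraries 2, 4 and 6 the list had 0, 1 and 0 lower genes and no higher one.

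Among 11 tested LXR targets other than those above, 2 were higher and 4 were lower, with a median of -0.15. Arl4c, which encodes a small GTPase of vesicle traffic, stood at 278, 201 and 279 CPM in the islet and 51.3, 53.1 and 50.5 CPM in fat libraries 2, 4 and 6. Its fat values were almost equal, and its log2 difference of 2.29 ± 0.24 (SE, edgeR adjusted p = 4.22e-04) was close to those of Mylip and Apoe. The fatty acid desaturase gene Scd2 was also higher, at 25.5 ± 8.72 against 7.30 ± 0.432 CPM (edgeR adjusted p = 0.0100), and lost the call without fat library 2, 4 or 6 (edgeR adjusted p = 0.0560, 0.0625 and 0.0566).

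Pltp, which encodes the phospholipid transfer protein of plasma, had the second largest difference of any sterol gene examined, in the direction opposite to Abcg1. It stood at 18.9, 22.9 and 37.7 CPM in the islet and 893, 1008 and 1540 CPM in fat libraries 2, 4 and 6. The log2 difference was -5.43 ± 0.42 (SE, edgeR adjusted p = 1.22e-04), or 43.0-fold. Mertk, the receptor with which macrophages take up dead cells, was lower as well, at 25.6 ± 9.79 against 210.6 ± 29.0 CPM (edgeR adjusted p = 5.86e-04). Named after their values were seen, Scd1 and Lpl completed the lower targets. Lpl, lipoprotein lipase, had a log2 difference of -1.34 (edgeR adjusted p = 0.0270), which was lost without islet library 2 or without fat library 2, 4 or 6 (edgeR adjusted p = 0.0847, 0.0588, 0.0685 and 0.111).

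Scd1, a desaturase abundant in adipocytes, stood at 4.03, 1.72 and 0.808 CPM in the islet and 164, 204 and 40.7 CPM in fat libraries 2, 4 and 6. Its log2 difference was -5.99 ± 0.78 (SE, edgeR adjusted p = 0.00124). That call was lost without islet libraries 2 and 4, a fit that leaves islet library 6 alone. The summed adipocyte markers of the same fat libraries were 88.1, 117 and 32.8 CPM, in the same order, and their part in the Scd1 result was not tested. Apoc1, a neighbour of Apoe in the same gene cluster, had no read in islet libraries and 2.08, 1.19 and 0.235 CPM in fat libraries, too few to be tested.

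**Figure D4:**
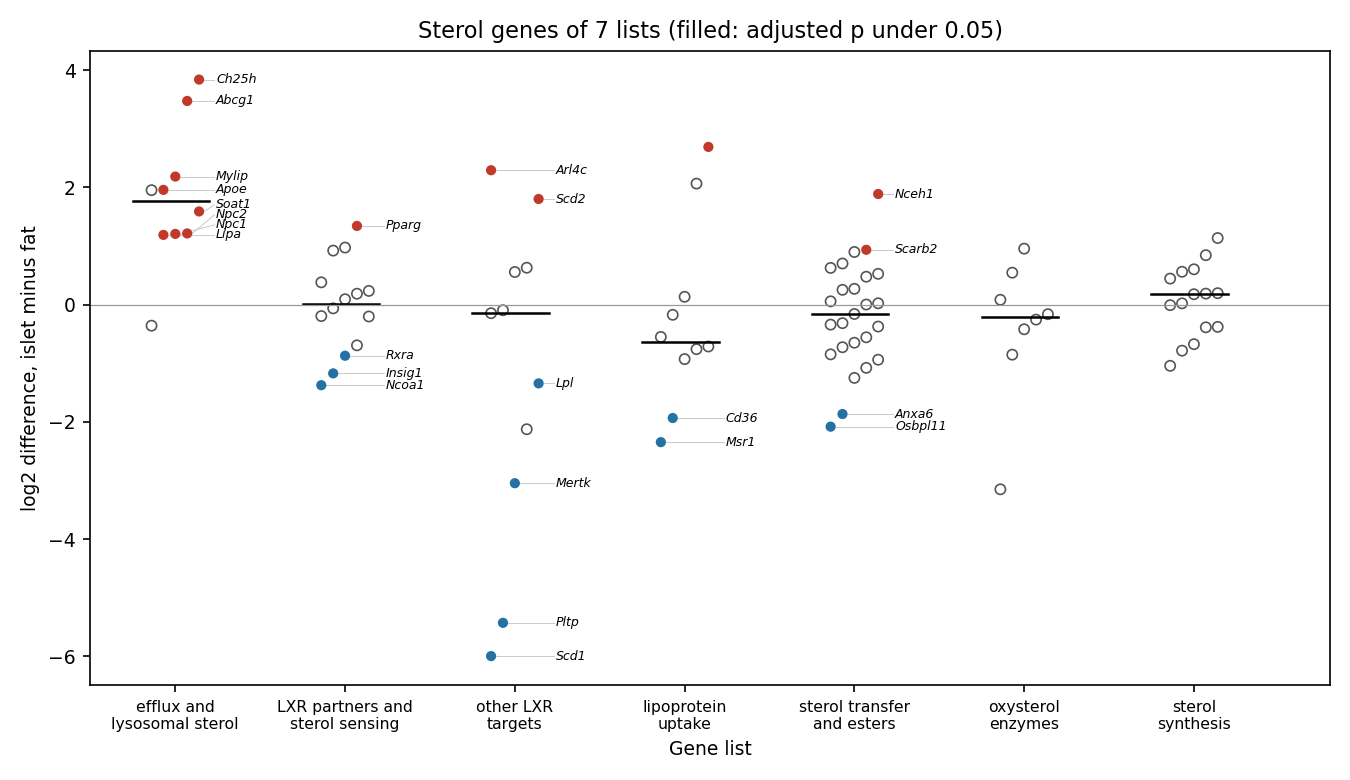
Log2 differences between islet and fat macrophages for the tested genes of 7 lists, the 10 genes at the left, with black bars at each list's median. Filled red dots were higher and filled blue dots lower in islet macrophages (adjusted p under 0.05), and open dots did not pass. The medians of the 6 other lists lie between -0.63 and 0.18, against 1.77 for the 10 genes. All 7 lists were chosen with earlier results of these data known, so the medians are a description.

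Genes for taking up lipoproteins had a median log2 difference of -0.63, with 1 of 10 tested genes higher and 2 lower. The scavenger receptors Msr1 and Cd36, which bind modified lipoproteins, were both lower. Msr1 stood at 26.5 ± 6.51 against 134.6 ± 19.5 CPM (SD over 3 libraries each, edgeR adjusted p = 7.27e-04) and Cd36 at 400.4 ± 118 against 1531 ± 205 CPM (edgeR adjusted p = 0.00349).

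Of 25 tested genes of sterol transfer and ester turnover other than the 10, 2 were higher and 2 were lower. Nceh1, a neutral cholesterol ester hydrolase, was higher, at 183, 124 and 240 CPM in the islet and 43.5, 51.9 and 52.9 CPM in fat libraries 2, 4 and 6. Its log2 difference was 1.89 ± 0.29 (SE, edgeR adjusted p = 0.00271). Thus Soat1, for an enzyme that makes the ester, and Lipa and Nceh1, for 2 that split it, were higher in islet macrophages. Soat2 and Lipe of the same list were not, with log2 differences of -0.34 and -0.56 (edgeR adjusted p = 0.859 and 0.362). Soat2 was near the floor, with means of 1.41 CPM in islet and 1.88 CPM in fat libraries. The other higher gene was Scarb2, which encodes a lysosomal membrane protein (log2 difference 0.93, edgeR adjusted p = 0.0492), and it missed the threshold in 12 of the alternative settings, the block by animal number among them (edgeR adjusted p = 0.0914). Osbpl11 and Anxa6, an oxysterol-binding-protein relative and a membrane-binding annexin, were lower by -2.08 and -1.87 on the log2 scale (edgeR adjusted p = 9.80e-04 and 0.00116).

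No gene of oxysterol and bile acid metabolism other than Ch25h passed (8 tested, 1 higher and 1 lower at an unadjusted p under 0.05, none by DESeq2 and 1 higher by limma voom). Gpr183, the receptor for an oxysterol made from the product of Ch25h, lay at the threshold, at 39.7, 33.0 and 44.9 CPM in the islet and 14.8, 24.5 and 21.5 CPM in fat libraries 2, 4 and 6. The tissues did not overlap in it, and its log2 difference was 0.95 ± 0.29 (SE, edgeR adjusted p = 0.05002, just above the threshold, and 0.0387 without islet library 4).

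No gene of cholesterol synthesis passed either (15 tested, none at an unadjusted p under 0.05 in edgeR, none by DESeq2 or limma voom). The median over the list was 0.18.

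The genes whose pattern over the 6 libraries was most like that of Apoe, by the root mean square distance between centred log2 CPM among 4556 well-expressed genes, were Zfp608, Cybb, Cd52, Cd74 and Psap, with distances of 0.131 to 0.156. Cd74, the invariant chain of MHC class II, stood at 28273, 30939 and 19435 CPM in the islet and 6493, 6699 and 7323 CPM in fat libraries 2, 4 and 6. As with Apoe, islet library 4 was the highest and islet library 6 the lowest of the islet libraries, which largely follows from the choice by likeness. Cybb encodes a subunit of the phagocyte NADPH oxidase and Psap the precursor of lysosomal saposins.

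The genes most like Abca1 were Pld2, Ice1, Usp6nl, Sec24d and Brd2, with distances of 0.0454 to 0.0880. Pld2, a phospholipase D, stood at 32.3, 30.7 and 72.7 CPM in the islet and 56.0, 57.6 and 64.5 CPM in fat libraries 2, 4 and 6. In each of these 5 genes, as in Abca1, islet library 6 was the highest of the 6 libraries and islet libraries 2 and 4 were below every fat library. This shared order largely follows from picking the genes by likeness over the same 6 libraries.

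**Figure D5:**
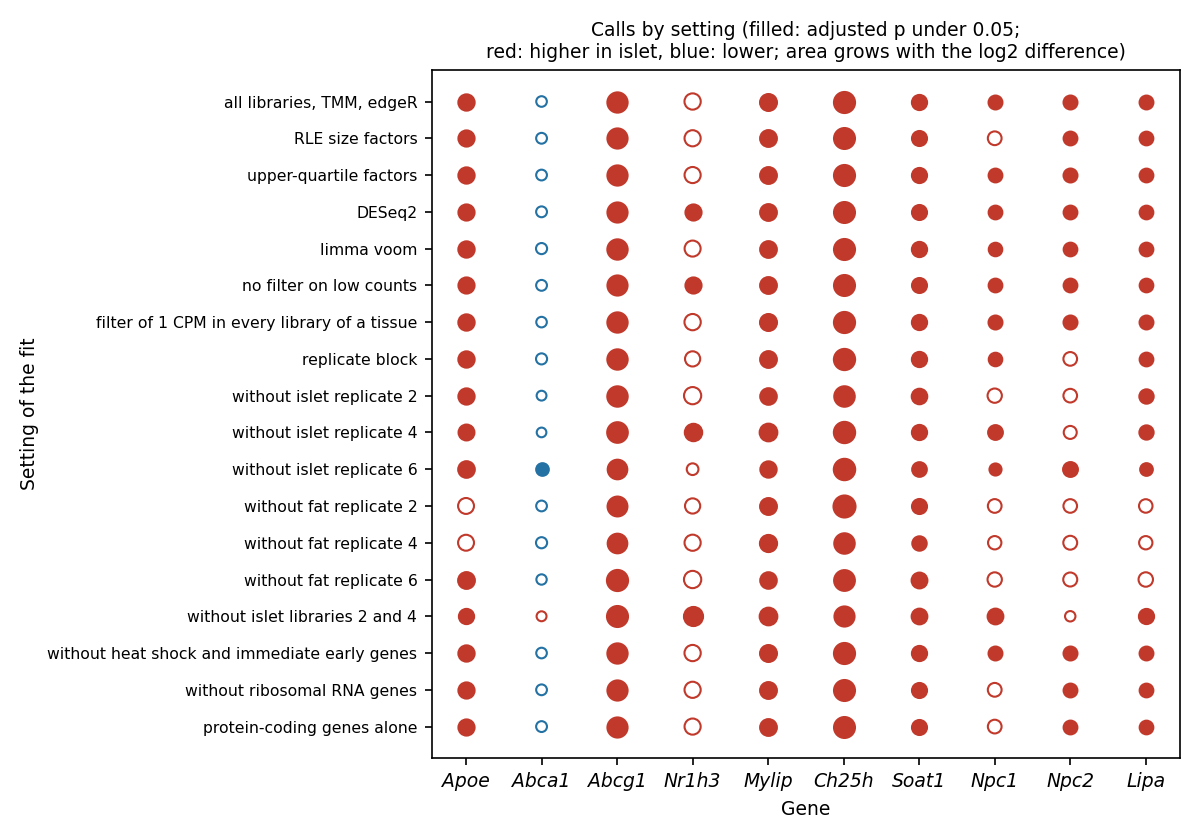
Log2 differences of the 10 genes under each of the 17 alternative settings and the reported fit (top line). The area of a circle grows with the size of the difference, red is higher and blue lower in islet macrophages, and filled circles have an adjusted p under 0.05. Abcg1, Mylip, Ch25h and Soat1 are filled on every line.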

How the data were processed

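RNA of sorted macrophages was measured in 6 libraries, 3 per tissue, made from 10 ng of total RNA each with a stranded, random-primed low-input kit, per the labels' protocols. The authors deposited raw read counts per gene, not normalised; STAR, featureCounts, Subread 1.6.4 and GRCm38 are named per the submitters' processing notes. The sources used here give neither the annotation nor the strand setting. Reads carry no molecular identifiers, so counts can include copies of a molecule.

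The 10 genes and the other lists were chosen with earlier results of these data known. Identifiers matched GENCODE M21 in 99.56% of cases. edgeR 4.0.16 (R 4.3.3) was run with filterByExpr by tissue, TMM scaling and a robust quasi-likelihood fit on tissue alone, and the difference tested was islet minus fat. Adjusted p values cover 12152 genes. SE is the difference divided by the root of F. CPM uses TMM-scaled library sizes. Level per length divides counts by merged exon length. p values measure the spread between these 3 libraries per tissue.

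Named genes were the 10, the smallest adjusted p in each direction of every other list (up to 2), and the 5 genes most like Apoe and Abca1 among those averaging 5 or more in log2 CPM. Other names were picked with their values known. A few genes enter the counts of their list but are not reported here. Equal numbers were taken as the same animal because the labels' design text speaks of autologous samples, although deviations from tissue means correlated at 0.046, 0.063 and -0.008 between equal numbers and at -0.142 to 0.103 between others.

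The alternatives tried were scaling by RLE or upper quartiles, voom in limma 3.58.1, DESeq2 1.42.0, no filter, a filter of 1 CPM, the animal number as a block, and each library left out. Added after seeing the data were fits without islet libraries 2 and 4, without heat shock and immediate early genes, without ribosomal RNA genes, and on protein-coding genes alone. Promoter windows came from RefSeq.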

Additional observations from a re-analysis of the deposited data

How the results depend on the processing

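With 3 libraries per tissue the limits lie in single libraries. Leaving out each library in turn gave 4 to 8 higher and 0 to 1 lower of the 10 genes (Abca1, lower without islet library 6), and 466 to 1649 higher and 593 to 2022 lower genes in all, fewest without fat library 4 and 2 and most without islet library 6. The ranges of higher and lower genes were 0 to 1 and 0 to 3 for LXR partners, 1 to 2 and 3 to 4 for other LXR targets, 0 to 2 and 2 to 3 for uptake, and 1 to 3 and 2 to 4 for transfer and esters. For oxysterol and bile acid genes 0 to 1 were higher. With the animal number as a block, the paired fit, 7 of the 10 genes were higher (Npc2 was lost) and 884 and 1103 of all genes were higher and lower. Blocking also left 1 higher gene in transfer and esters and ended the calls of Rxra (edgeR adjusted p = 0.0622) and Scarb2 (edgeR adjusted p = 0.0914), and no other call named here.

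Without islet libraries 2 and 4, which takes the spread of the fat libraries for the lone islet library, 2064 genes were higher and 2916 lower, against 1090 and 1271. Of the 10 genes 8 were higher, Nr1h3 among them and Npc2 not. In that fit 4 other LXR targets were higher, 2 uptake genes were higher, 8 transfer and ester genes were lower, 1 oxysterol gene was higher and 3 were lower, and 1 synthesis gene was higher and 3 were lower. Differences that changed sign there were Abca1 at 0.21, Pld2 at 0.21, Ice1 at 0.18, Usp6nl at 0.030, Sec24d at 0.29, Brd2 at 0.20 and Fasn at 0.056. Fasn also turned to 0.11 with voom, 0.068 with the block and 0.08 without fat library 2, and ranged from -0.49 to 0.13 when single libraries were left out. The cause was not tested.

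Transfer and esters had 1 higher gene with RLE or upper-quartile factors, no filter, no ribosomal RNA genes or protein-coding genes alone, and 3 lower genes with DESeq2 or no filter. Uptake had 2 higher and 3 lower genes with no filter. Oxysterol and bile acid genes had 1 higher gene with voom or the filter of 1 CPM and 1 lower with no filter. Npc1 lost its call with RLE factors (edgeR adjusted p = 0.0541), without ribosomal RNA genes and on protein-coding genes alone (edgeR adjusted p = 0.0542 in each). The lowest count of any of the 10 genes was 14 reads, for Ch25h in fat library 4.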
